A study of Mus musculus with 8 samples.

Results

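The expression of 46 interferon-stimulated and antigen presentation genes was measured in NIH 3T3 cells, an established line of mouse embryonic fibroblasts. The genes were chosen by name, and every probe that the array annotation pairs with one of these names was used. Of the 46 genes, 44 had a probe, with 71 probes in all, among 16593 genes on the Illumina MouseRef-8 array. Ifi44 and Dtx3l had no probe. Fibroblasts were incubated for 24 h with media supernatant (2 arrays), with cardiomyocyte media (3 arrays) or with unused Claycomb media (3 arrays). Cardiomyocyte media was Claycomb media that had been on cultured HL-1 cells, a contracting line from a tumour of mouse atrium. The supernatant was what remained of such media after slower spins against cell debris and an ultracentrifugation. All cells thus received Claycomb media, and neither fibroblasts in their usual growth media nor unused media that had been spun were arrayed. The RNA samples of a group came from separate wells. Whether the wells belonged to separate experiments is not stated in the sources used here, so p-values measure only the spread between arrays, which may be technical.

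Interferons are secreted proteins that warn cells of a viral infection. Sensors such as RIG-I, the product of Ddx58, bind viral RNA and lead to the release of interferon, whose receptors act through JAK kinases on transcription factors that include STAT2 and IRF9. A complex that holds both binds the interferon-stimulated response element (ISRE) of promoters and raises the expression of antiviral effectors, of large GTPases and of the proteins that load peptides onto class I MHC molecules. Fibroblasts can both secrete interferon beta and respond to it.

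Promoter windows of 300 bases around the annotated start were available from RefSeq (GRCm38.p6) for 37 of the 46 genes, in 44 windows. The genes not in that table were Usp18, Parp14, Parp9, Dhx58, Zbp1, Mx1, Mx2, Rtp4 and Tap2. The ISRE core, searched as GAAANNGAA on both strands, was found for 22 of the 37 genes (59.5%), against 2638 of all 27025 genes with a window (9.76%). The gamma-activated site (GAS), searched as TTCNNNGAA, which reads the same on both strands, was found for 9 of the 37 genes (24.3%), against 9.55% of all genes. The letters GGGANTTCC, a narrow form of the NF-kB core, were searched on both strands. They were found for Cxcl10 alone of the 37 genes (2.7%), against 1.92% of all genes. Other forms were not searched, and ggggattcccc in the H2-D1 window below does not match these letters. In Bst2 and Ifitm3 an ISRE match and a GAS match share letters, and a match describes letters, not binding. The most ISRE matches in a window, 3, were found for Isg15, Ifit1 and Ifit3, of which Ifit1 was not tested on the arrays and the others did not pass. Oasl2 and H2-D1 did pass, and the letters searched are not in their windows. Other forms of the ISRE were not searched, so a window without a match may still hold one. In the H2-D1 window, agtttcacttct shares agtttcactt with the Ifit1 matches but does not match the letters searched. ISRE matches are in capitals below, and neighbouring matches run into each other. The windows of Oasl2 and H2-D1, and those of Isg15 and Ifit1, are printed 5′ to 3′, otherwise in lower case. They lie at chr5:114896684-114896983 on the plus strand (Oasl2), chr17:35262844-35263143 on the plus strand (H2-D1), chr4:156200769-156201068 on the minus strand (Isg15) and chr19:34640639-34640938 on the plus strand (Ifit1).
Oasl2: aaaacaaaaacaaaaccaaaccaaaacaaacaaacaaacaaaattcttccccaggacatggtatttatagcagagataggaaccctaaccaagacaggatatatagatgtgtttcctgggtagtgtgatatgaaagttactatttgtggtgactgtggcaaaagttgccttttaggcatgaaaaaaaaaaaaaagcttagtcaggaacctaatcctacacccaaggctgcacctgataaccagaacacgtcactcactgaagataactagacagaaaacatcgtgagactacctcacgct
H2-D1: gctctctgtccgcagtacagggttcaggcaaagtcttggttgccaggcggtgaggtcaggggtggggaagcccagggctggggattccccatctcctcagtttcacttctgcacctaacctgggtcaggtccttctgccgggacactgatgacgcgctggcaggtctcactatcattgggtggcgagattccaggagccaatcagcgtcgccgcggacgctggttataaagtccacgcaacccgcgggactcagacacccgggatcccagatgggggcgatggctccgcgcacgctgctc
Isg15: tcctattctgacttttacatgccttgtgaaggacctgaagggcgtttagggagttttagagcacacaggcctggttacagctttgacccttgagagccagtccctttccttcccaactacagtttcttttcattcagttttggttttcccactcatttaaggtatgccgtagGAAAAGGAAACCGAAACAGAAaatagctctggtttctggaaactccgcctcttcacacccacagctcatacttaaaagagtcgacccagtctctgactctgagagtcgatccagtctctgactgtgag
Ifit1: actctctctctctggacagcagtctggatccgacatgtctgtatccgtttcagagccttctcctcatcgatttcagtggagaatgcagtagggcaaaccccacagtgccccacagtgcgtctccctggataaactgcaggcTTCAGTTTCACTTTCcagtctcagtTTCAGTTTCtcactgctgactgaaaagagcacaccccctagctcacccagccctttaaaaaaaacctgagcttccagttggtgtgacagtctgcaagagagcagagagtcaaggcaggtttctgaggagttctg

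The 8 arrays lay on 2 chips. Supernatant replicate 2 and cardiomyocyte media replicates 2 and 3 lay on chip 2, and the other 5 arrays on chip 1, so that conditioned media and chip are partly confounded. A probe counted as detected where its detection p-value, from the negative controls of the array, was under 0.05. Between 10545 and 11758 of 25697 probes were detected per array, and of the 44 genes with a probe 27 and 28 were detected with the supernatant, 25, 28 and 30 with cardiomyocyte media and 24 to 26 with unused media. Of 8 fibroblast markers with a probe, 7 or 8 were detected on every array. Of 9 cardiomyocyte markers 1 to 3 were detected, with Tnni3, Actc1, Ryr2, Pln and Csrp3 on no array, and of 8 leukocyte markers 2 to 4, with Adgre1, Tyrobp, Fcer1g and Laptm5 on no array. The summed signal of the tested leukocyte markers was 149.9 to 159 with the supernatant, 76.7 to 169 with cardiomyocyte media and 172 to 189 with unused media. That of the cardiomyocyte markers was 134 to 138, 163 to 254 and 161 to 354 in the same order, and endothelial markers were detected 0 or 1 of 5 on an array. Their part in the results was not tested.

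Detection separated the list first. Of the 44 genes with a probe, 15 were detected on fewer than 2 arrays by each of their probes and were not tested. They were the RNA sensor Ifih1, the transcription factor Irf7, the ubiquitin ligase Trim25, the ADP-ribosyltransferase family member Parp9, the effectors Ifit1, Oas1a, Oasl1, Mx1, Mx2, Rsad2, Ifitm1, Xaf1 and Rtp4, the class I heavy chain H2-K1 and the chemokine Cxcl10. Of their 20 probes, 18 were detected on no array and 2 on 1 array each, with signals of 4.0 to 34.5 over all arrays. Cxcl10 had signals of 13.9 and 9.41 with the supernatant, 34.5, 7.43 and 9.57 with cardiomyocyte media and 16.3, 17.9 and 14.5 with unused media. It was detected on the cardiomyocyte media array with 34.5 only. Mx1 had signals of 4.18 and 6.86 with the supernatant, 4.0, 11.8 and 6.94 with cardiomyocyte media and 4.03, 4.36 and 4.34 with unused media. These arrays cannot show whether such genes differed between the media. The other 29 genes were tested (65.9% of 44, against 53.5% of all genes with a probe), and signals are printed on the linear scale in fluorescence units.

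Few of the 29 tested genes differed between the media. With the supernatant, compared with unused media, 2 of 29 were higher (6.9%), against 2.17% of 8885 genes tested that passed in either direction, 0.732% higher and 1.44% lower. None was lower in the limma test, and 4 of the 29 (13.8%) had an unadjusted p under 0.05, against 11.9% of all genes. With cardiomyocyte media, compared with unused media, 3 were higher and 1 was lower (13.8%), against 8.36% of all genes (4.01% higher and 4.36% lower), and 9 (31%) had an unadjusted p under 0.05, against 25.1%. Between the supernatant and cardiomyocyte media 1 gene was higher with the supernatant (3.45%), against 4.9% of all genes (1.76% higher and 3.14% lower), and 6 (20.7%) had an unadjusted p under 0.05, against 15.2%. The genes that passed were Usp18, Oasl2, H2-D1 and Parp14, and since the supernatant and cardiomyocyte media are compared with the same unused media arrays their values are given side by side.

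The median of the list stayed near 0. The 29 genes had a median log2 fold change of 0.14 with the supernatant over unused media, against -0.0027 for all genes tested, and 20 of the 29 lay above 0. With cardiomyocyte media over unused media the median was 0.0040, against -0.011 for all genes, and with the supernatant over cardiomyocyte media it was 0.029, against 0.016. The arrays of the groups did not overlap for 9 genes with the supernatant and unused media (7 higher and 2 lower), where 31.3% of all genes were apart. They did not overlap for 10 genes with cardiomyocyte media and unused media (6 higher and 4 lower), where 28.6% of all genes were apart, and for 15 with the supernatant and cardiomyocyte media (8 higher and 7 lower), against 32.4%. With a chip term in the fit the medians were 0.080, 0.0054 and 0.011 in the order of the comparisons, and within chip 1 alone they were 0.043, 0.048 and 0.038. Median scaling moved the median of all genes to 0.26 with the supernatant and 0.21 with cardiomyocyte media over unused media, and that of the 29 genes to 0.38 and 0.28.

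**Figure D1:**
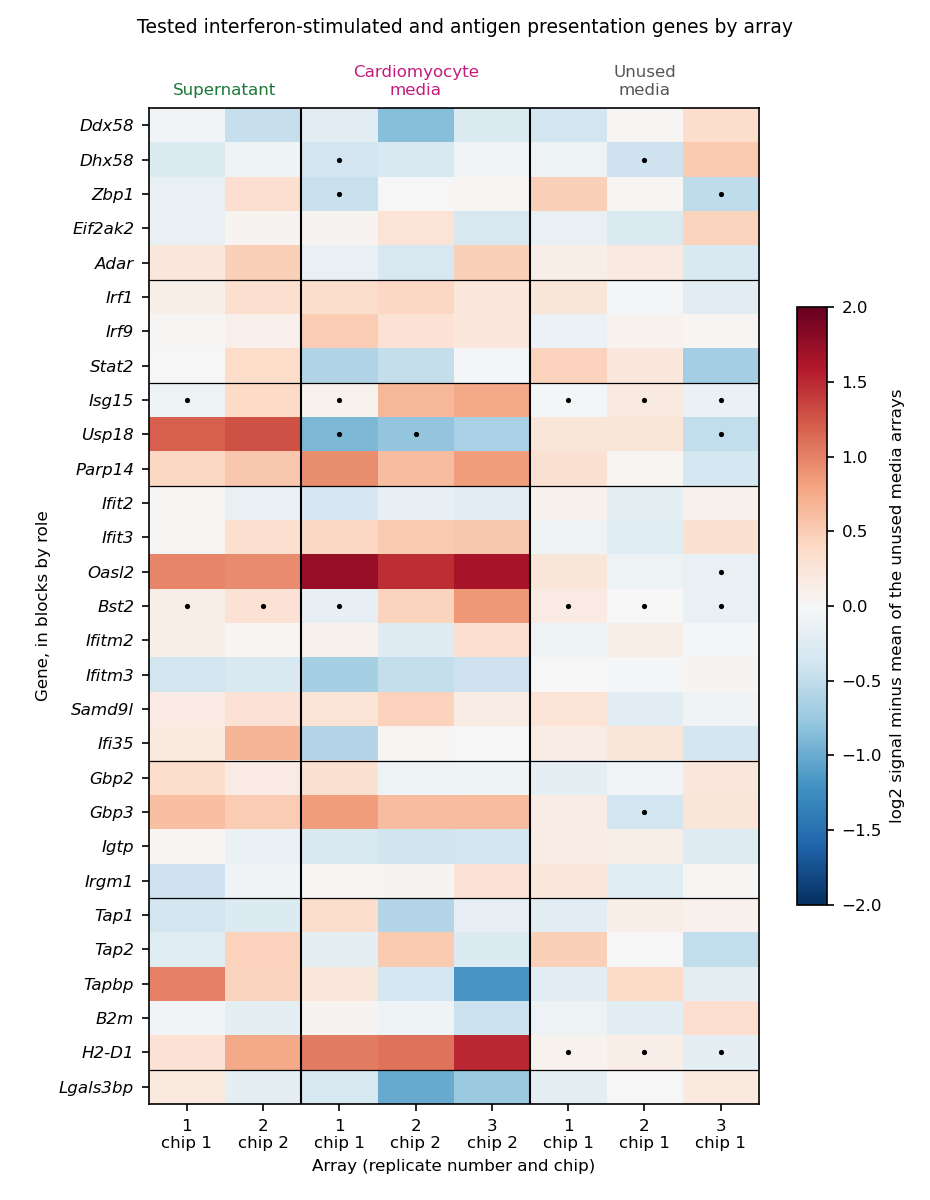
Signal of each of the 29 tested genes (rows, in blocks by role) on each of the 8 arrays (columns, by group, with replicate number and chip), as log2 signal minus the mean of the 3 unused media arrays, with a dot where the probe was not detected. Usp18, Oasl2 and H2-D1 stand out from rows that are mostly pale, with Usp18 at 103 and 110.1 with the supernatant, against 11.7 to 17.0 with cardiomyocyte media.

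Usp18 encodes the protease that removes the ubiquitin-like protein ISG15 from its targets and that also restrains signalling at the type I interferon receptor. Its signal was 103 and 110.1 with the supernatant, 11.7, 14.0 and 17.0 with cardiomyocyte media and 45.2, 45.7 and 21.0 with unused media. The supernatant arrays were the highest and the cardiomyocyte media arrays the lowest, and no groups overlapped. It was detected on both supernatant arrays, on 1 of 3 with cardiomyocyte media and on 2 of 3 with unused media, so that the size of its log2 fold changes against cardiomyocyte media rests in part on values not above background. Usp18 averaged 107 ± 4.88 with the supernatant (SD, n = 2), 14.2 ± 2.67 with cardiomyocyte media and 37.3 ± 14.1 with unused media (SD, n = 3 each). With the supernatant it rose over unused media by a log2 fold change of 1.24 ± 0.24 (SE, limma, adjusted p = 0.0228), and with cardiomyocyte media it fell by 0.78 ± 0.21 (SE, adjusted p = 0.0464). The log2 fold change of the supernatant over cardiomyocyte media was 2.02 ± 0.24 (SE, adjusted p = 0.000623), the lowest adjusted p of the list in that comparison.

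The difference of Usp18 between both conditioned media held under 23 of 24 alternatives, with log2 fold changes of 1.05 to 3.42 and adjusted p from 4.1e-05 to 0.0910, the highest within chip 1 alone. With a chip term in the fit it was 2.05, and within chip 2 it was 2.0. Within chip 1, where a conditioned medium has 1 array, the spread comes from the unused media arrays alone. The comparisons with unused media were less stable. With a chip term Usp18 was 1.17 higher with the supernatant than with unused media (adjusted p = 0.0405, and 0.0118 to 0.317 over 23 alternatives), and within chip 1 it was 1.20 higher (adjusted p = 0.317). Without supernatant replicate 1 or 2 that difference was 1.28 or 1.20 and no longer passed (adjusted p = 0.150 and 0.208). With cardiomyocyte media the call ended under 20 of 23 alternatives (adjusted p from 0.00765 to 0.295), among them a chip term (-0.88), chip 1 alone (-0.91) and leaving out any array but unused media replicate 3. Without single arrays of unused media or cardiomyocyte media the value was -0.66 to -0.85 where the call ended.

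A second kept probe of Usp18 had signals of 51.3 and 62.1 with the supernatant, 17.3, 11.0 and 8.81 with cardiomyocyte media and 45.6, 51.8 and 29 with unused media. On this probe too the cardiomyocyte media arrays were the lowest of all, while the supernatant arrays overlapped with those of unused media. Tested probe by probe, it was 0.34 higher with the supernatant than with unused media (adjusted p = 0.623 over all probes), fell at least 1.68-fold with cardiomyocyte media, where no array detected it (adjusted p = 0.0135), and was at least 2.12-fold higher with the supernatant than with cardiomyocyte media (adjusted p = 0.00708). The probes thus shared the difference between both conditioned media, and the rise over unused media rested on 1 of them. The remaining probe was detected on supernatant replicate 1 only.

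The rest of the ISG15 system gave fewer differences. Isg15, whose product is joined to proteins like ubiquitin, had signals of 7.28 and 16.9 with the supernatant, 10.3, 23.5 and 26.5 with cardiomyocyte media and 8.25, 12.3 and 6.91 with unused media. It was detected on 1 array with the supernatant, 2 with cardiomyocyte media and none with unused media, and the groups overlapped in every comparison. No fold is given over unused media, since the bound lay under 1, and the adjusted p was 0.864 with the supernatant and 0.192 with cardiomyocyte media. Without cardiomyocyte media replicate 1, the only array of that group on chip 1, Isg15 passed over unused media (adjusted p = 0.0381, and 0.0381 to 0.941 over 23 alternatives). Parp14, an enzyme that attaches ADP-ribose to proteins, had signals of 108 and 119 with the supernatant, 161, 126 and 150.1 with cardiomyocyte media and 98.7, 79.5 and 56.5 with unused media. The 3 groups did not overlap, with the supernatant between the other media. Its relative Parp9 had signals of 9.17 and 11.8 with the supernatant, 5.23, 9.35 and 6.54 with cardiomyocyte media and 4.27, 4.62 and 5.54 with unused media, none of them detected. Parp14 rose with cardiomyocyte media by a log2 fold change of 0.80 ± 0.20 (SE, adjusted p = 0.0322), and with the supernatant it had one of 0.48 (95% interval -0.0028 to 0.97, adjusted p = 0.424). The call with cardiomyocyte media ended under 7 of 24 alternatives (adjusted p from 0.0204 to 0.231), namely with a chip term (0.84), within chip 1 (0.93), with the authors' values (0.93), and when replicate 2 (0.82) or 3 (0.62) of unused media or replicate 2 (0.89) or 3 (0.77) of cardiomyocyte media was left out.

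Oasl2 was the only gene of the list that passed as higher with both conditioned media. The arrays of both also lay above all of unused media for Parp14, Gbp3 and H2-D1, which did not pass with the supernatant. Oasl2 belongs to the family of oligoadenylate synthetases, and its product carries ubiquitin-like domains. Its signal was 59.4 and 57.7 with the supernatant, 113, 90.6 and 105 with cardiomyocyte media and 29.5, 20.01 and 18.7 with unused media. The groups were apart, with the supernatant between the other two, and only unused media replicate 3 was not detected. Oasl2 averaged 58.5 ± 1.19 with the supernatant (SD, n = 2), 103 ± 11.4 with cardiomyocyte media and 22.7 ± 5.90 with unused media (SD, n = 3 each). With cardiomyocyte media it rose over unused media by a log2 fold change of 1.62 ± 0.17 (SE, adjusted p = 0.000170), and with the supernatant by 0.95 ± 0.19 (SE, adjusted p = 0.0295). The difference between the supernatant and cardiomyocyte media was -0.67 (95% interval -1.09 to -0.25, adjusted p = 0.0831), and it passed with a chip term (-0.69, adjusted p = 0.0468, the lowest over 24 alternatives that reached 0.529).

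The rise of Oasl2 with cardiomyocyte media held under all 23 alternatives, with log2 fold changes of 0.86 to 2.36 and adjusted p from 5.26e-05 to 0.0167. A chip term gave 1.70, and chip 1 alone gave 1.75. The rise with the supernatant ended under 10 of 23 alternatives (adjusted p from 0.0185 to 0.296). It held with a chip term (1.01) and ended within chip 1 (0.97). It also ended when supernatant replicate 1 (0.94) or 2 (0.97) or unused media replicate 2 (0.91) or 3 (0.88) was left out, and with median scaling (1.13). The other probe of Oasl2 was detected on cardiomyocyte media replicate 3 only and was not tested. The related Oasl1, by 3 probes, and Oas1a were detected on no array, with signals of 4.26 to 14.5 over both genes.

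**Figure D2:**
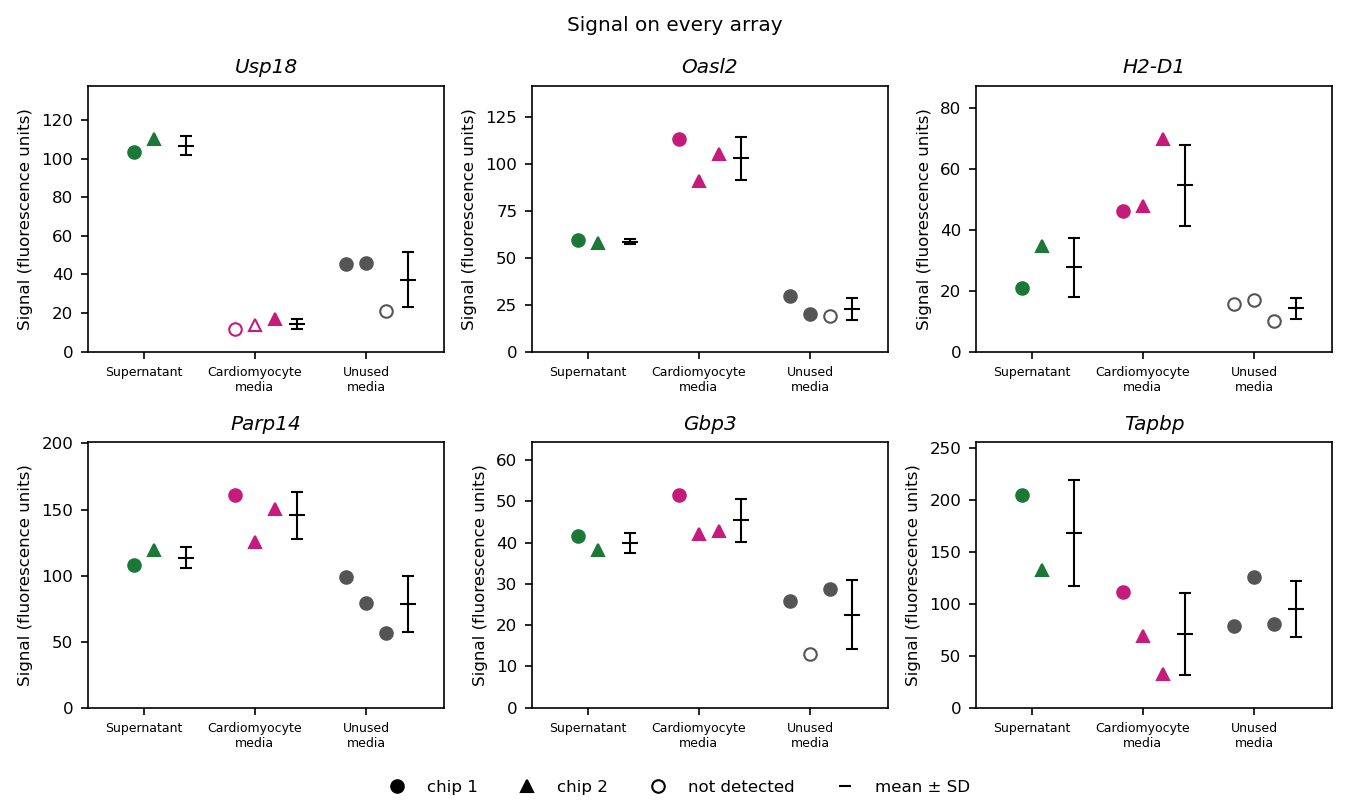
Signal on the linear scale in fluorescence units of 6 genes on every array, by group from left to right, with circles for chip 1, triangles for chip 2, open symbols where the probe was not detected, and bars for the mean and SD. Oasl2 lay at 57.7 to 59.4 with the supernatant, 90.6 to 113 with cardiomyocyte media and 18.7 to 29.5 with unused media, and H2-D1 was detected on no array of unused media.

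The other antiviral effectors that could be tested did not pass in any comparison. Ifitm3, a membrane protein that hinders the fusion of viruses with cells, had signals of 6599 and 6886 with the supernatant, 5359.8, 6115 and 6415 with cardiomyocyte media and 8501, 8275 and 8856 with unused media. All arrays of the conditioned media lay below all of unused media. The log2 fold change was -0.34 with the supernatant (adjusted p = 0.485) and -0.52 with cardiomyocyte media (standard error 0.16, adjusted p = 0.0658), and the second passed under 5 of 24 alternatives (adjusted p from 0.0110 to 0.721). Its neighbour on chromosome 7, Ifitm2, had signals of 9529 and 8813 with the supernatant, 9284, 7251 and 10837 with cardiomyocyte media and 8184, 9468 and 8501 with unused media, with overlap throughout. Ifitm2 had a log2 fold change of 0.075 with the supernatant and 0.049 with cardiomyocyte media (95% interval -0.36 to 0.46 for the second).

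Ifit2 and Ifit3 encode proteins that bind viral RNA and lie next to Ifit1 on chromosome 19. Ifit3 had signals of 219 and 277 with the supernatant, 291, 317 and 319 with cardiomyocyte media and 204, 179.8 and 271 with unused media. By its main probe cardiomyocyte media lay above unused media on every array, with a log2 fold change of 0.49 ± 0.19 (SE, adjusted p = 0.138). Its other kept probes lay at 0.56 and -0.43 there (adjusted p = 0.206 and 0.473 over all probes). On the last of these the groups overlapped. Ifit2 had signals of 352 and 311 with the supernatant, 269.8, 309 and 293 with cardiomyocyte media and 370.2, 305 and 367 with unused media. It overlapped in both comparisons with unused media, with log2 fold changes of -0.062 and -0.24 for the supernatant and cardiomyocyte media. Ifit1 was detected on no array. Bst2, which tethers budding viruses to the cell, was detected on 2 arrays, both with cardiomyocyte media, and had signals of 10.7 and 13.9 with the supernatant, 5.73, 17.2 and 28.4 with cardiomyocyte media and 11.5, 8.17 and 5.93 with unused media. With cardiomyocyte media over unused media the bound on its fold lay under 1 (adjusted p = 0.353). The detection filter kept Bst2 only through the group where it is high. Without cardiomyocyte media replicate 1, the only array of that group on chip 1, it passed (adjusted p = 0.0477, and 0.0477 to 0.977 over 23 alternatives). Unused media lay on chip 1 only, so that fit cannot tell media from chip. Within chip 1 the log2 fold change of Bst2 was -0.17. Samd9l, which restricts viral replication, and Ifi35 had log2 fold changes over unused media of 0.22 and 0.44 with the supernatant and of 0.30 and -0.19 with cardiomyocyte media.

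H2-D1 was the member of antigen presentation that passed. It encodes a heavy chain of class I MHC, which shows peptides to cytotoxic T cells. Its signal was 20.8 and 34.6 with the supernatant, 46.1, 47.9 and 69.8 with cardiomyocyte media and 15.6, 16.8 and 10.2 with unused media. The groups were apart, and the probe was detected on every array of either conditioned medium and on none of unused media. H2-D1 averaged 27.7 ± 9.73 with the supernatant (SD, n = 2), 54.6 ± 13.2 with cardiomyocyte media and 14.2 ± 3.54 with unused media (SD, n = 3 each). With cardiomyocyte media it rose at least 1.93-fold over unused media (fitted log2 fold change 1.22, standard error 0.20, adjusted p = 0.00329). For this bound each unused media array was given its own signal or, if higher, the lowest one that was detected on that array. The bound compares group means on the scale with an offset of 16 and leaves out the spread between arrays. With the supernatant the bound was at least 1.20-fold and the fitted value 0.52 (adjusted p = 0.392), and the log2 fold change of the supernatant over cardiomyocyte media was -0.69 (95% interval -1.19 to -0.20, adjusted p = 0.126).

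The rise of H2-D1 with cardiomyocyte media held under 22 of 23 alternatives (adjusted p from 0.00270 to 0.107). The fitted value was 0.99 with a chip term (adjusted p = 0.0204) and 1.05 within chip 1, where it did not pass. Class I genes resemble each other in sequence, so a probe may bind the RNA of another class I gene, which was not tested.

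None of the tested partners of the class I heavy chain passed. B2m, the light chain of class I MHC, had signals of 7485 and 6725 with the supernatant, 8006, 7314 and 5746 with cardiomyocyte media and 7251, 6582 and 9725 with unused media. By this probe, its brightest, all groups overlapped. The log2 fold change was -0.13 with the supernatant (95% interval -0.62 to 0.37) and -0.15 with cardiomyocyte media (95% interval -0.60 to 0.29). On the other kept probe of B2m cardiomyocyte media (5779, 6357 and 5103) lay below every unused media array (6582, 7190 and 8224). Its log2 fold changes were -0.22 with the supernatant and -0.35 with cardiomyocyte media (limma, adjusted p = 0.717 and 0.250 over all probes). The peptide transporter genes Tap1 and Tap2 had log2 fold changes over unused media of -0.32 and 0.10 with the supernatant and of -0.14 and 0.025 with cardiomyocyte media. The other class I heavy chain, H2-K1, had signals of 4.55 to 18.3 by its 2 probes and was detected only on cardiomyocyte media replicate 3, by 1 of them. Tapbp encodes tapasin, which joins the transporter to class I molecules, and had signals of 204 and 132 with the supernatant, 112, 69.5 and 32.9 with cardiomyocyte media and 78.6, 126 and 80.7 with unused media. The supernatant lay above the other media on both arrays, with a log2 fold change of 1.16 over cardiomyocyte media (standard error 0.36, adjusted p = 0.111). This passed with a chip term (1.02), without cardiomyocyte media replicate 1 (1.48) and after median scaling (1.27), with adjusted p from 0.0136 to 0.631 over 25 alternatives. The second probe of Tapbp had signals of 56.4 and 63.7 with the supernatant, 45.4, 93.1 and 86.8 with cardiomyocyte media and 37.6, 38.4 and 42.4 with unused media, so that its log2 fold change in the same comparison had the other sign, at -0.22 (adjusted p = 0.828).

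The interferon-inducible GTPases, which coat the vacuoles of intracellular pathogens, did not pass by the probe that stands for each gene. Gbp3 had signals of 41.6 and 38.1 with the supernatant, 51.4, 42.0 and 42.7 with cardiomyocyte media and 25.8, 13.0 and 28.9 with unused media. The conditioned media lay above unused media on every array, with log2 fold changes of 0.56 with the supernatant (adjusted p = 0.340) and 0.69 with cardiomyocyte media (standard error 0.19, adjusted p = 0.0512). A second probe of Gbp3 had signals of 18.2 and 49.6 with the supernatant, 41.2, 46.9 and 57.9 with cardiomyocyte media and 8.05, 9.85 and 17.3 with unused media. It was detected on no array of unused media and, tested probe by probe, rose with cardiomyocyte media at least 1.78-fold (adjusted p = 0.0147 over all probes), and with the probes averaged Gbp3 rose by 0.96 (adjusted p = 0.00855, and 0.00855 to 0.288 over 23 alternatives). Gbp2, its neighbour on chromosome 3, had a log2 fold change of 0.042 with cardiomyocyte media by its main probe, with signals of 1339 and 1175 with the supernatant, 1299.9, 982 and 994 with cardiomyocyte media and 931, 1014 and 1229.9 with unused media. Another kept probe of Gbp2 was detected on no cardiomyocyte media array and lay lower there by at least 1.38-fold without passing (adjusted p = 0.0588 over all probes). Igtp and Irgm1 on chromosome 11 had log2 fold changes over unused media of -0.046 and -0.24 with the supernatant and of -0.36 and 0.12 with cardiomyocyte media. The other kept probe of Irgm1 had the other sign, at 0.037 and -0.42 in the same order (adjusted p = 0.972 and 0.326 over all probes).

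**Figure D3:**
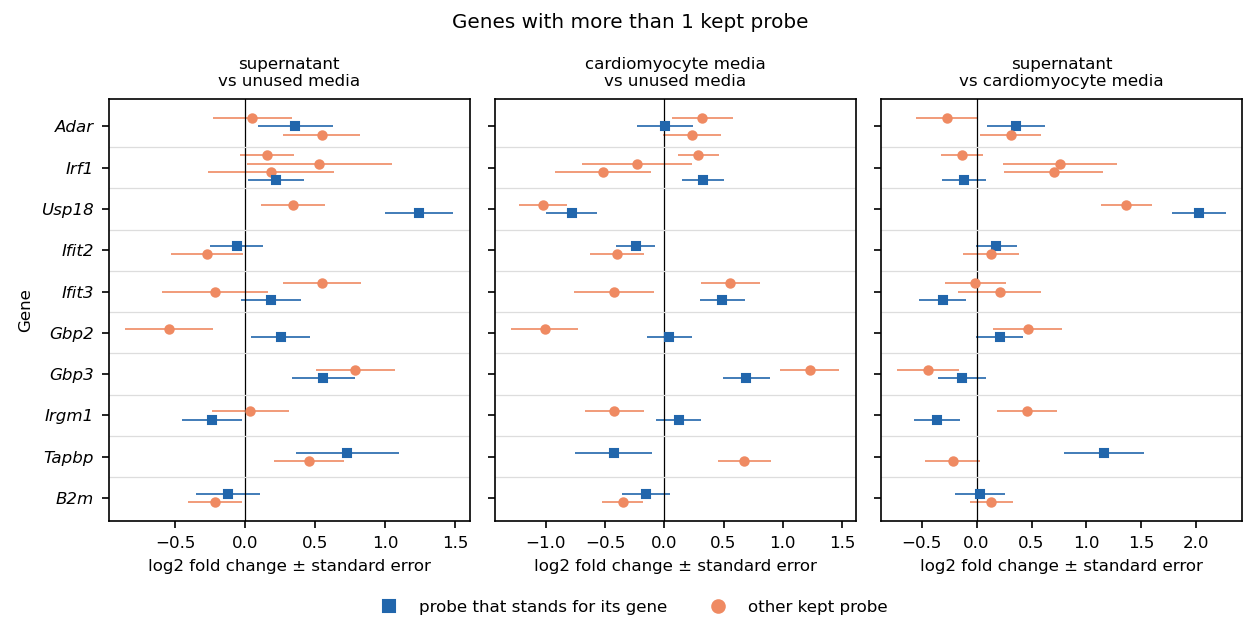
Log2 fold change and standard error (horizontal axis) of each kept probe of the 10 genes with more than 1 kept probe, in the 3 comparisons, with squares for the probe that stands for its gene and circles for the others. The probes of Tapbp lay at 1.16 and -0.22 in the comparison of the supernatant with cardiomyocyte media, while both probes of Usp18 lay above 1.

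Sensors of double-stranded RNA and transcription factors gave no call. Of the 5 tested sensors and regulators, none passed in any comparison in limma, and none had an unadjusted p under 0.05. Ddx58, the sensor RIG-I, had signals of 84.0 and 59.5 with the supernatant, 72.6, 41.3 and 68.9 with cardiomyocyte media and 64.3, 89.3 and 116 with unused media. The groups overlapped, with log2 fold changes of -0.26 with the supernatant (95% interval -0.85 to 0.33) and -0.46 with cardiomyocyte media (95% interval -0.98 to 0.067) over unused media. Eif2ak2, the kinase PKR that stops translation when it binds double-stranded RNA, had signals of 1022 and 1176 with the supernatant, 1179.8, 1376.5 and 907 with cardiomyocyte media and 1019, 928 and 1544 with unused media. Its log2 fold change was -0.049 with the supernatant and 0.0040 with cardiomyocyte media. Dhx58, a regulator of RIG-I, Zbp1, a sensor of nucleic acids in the Z conformation, and Adar, which edits double-stranded RNA, had log2 fold changes over unused media of -0.18, 0.095 and 0.36 with the supernatant and of -0.25, -0.14 and 0.0017 with cardiomyocyte media.

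Of the transcription factors, Irf9, the DNA-binding part of the complex on the ISRE, had signals of 75.8 and 80.9 with the supernatant, 113, 93.8 and 88.2 with cardiomyocyte media and 67.1, 78.9 and 77.1 with unused media. Cardiomyocyte media lay above the other groups on all its arrays, with a log2 fold change over unused media of 0.34 (95% interval -0.024 to 0.69, adjusted p = 0.228). Stat2, its partner, had signals of 57.8 and 79.1 with the supernatant, 32.9, 36.9 and 56.2 with cardiomyocyte media and 86.0, 69.7 and 30.0 with unused media. The wide range within unused media left log2 fold changes of 0.18 with the supernatant (95% interval -0.52 to 0.88) and -0.37 with cardiomyocyte media (95% interval -0.99 to 0.26). By its main probe Irf1 had log2 fold changes of 0.22 and 0.33 in the same comparisons. With cardiomyocyte media its other kept probes lay at 0.29, -0.23 and -0.52, and none passed (adjusted p = 0.338, 0.792 and 0.461 over all probes). Irf7 was detected on no array. No transcription factor had an unadjusted p under 0.05 in any comparison. Lgals3bp, a secreted glycoprotein, had signals of 366 and 275 with the supernatant, 252, 149 and 183 with cardiomyocyte media and 278, 314 and 365 with unused media. The cardiomyocyte media arrays lay below all others, with a log2 fold change of -0.69 over unused media (standard error 0.21, adjusted p = 0.0737), and the supernatant over cardiomyocyte media had one of 0.69 (adjusted p = 0.162). Without cardiomyocyte media replicate 1, the only array of that group on chip 1, these were -0.88 and 0.88 and passed (adjusted p = 0.0167 and 0.0438). Over the alternatives of each, adjusted p ran from 0.0167 to 0.691 and from 0.0438 to 0.773. The first passed under 4 of 24 alternatives, the others being no background correction, an offset of 50, and trend and robust settings of the fit.

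**Figure D4:**
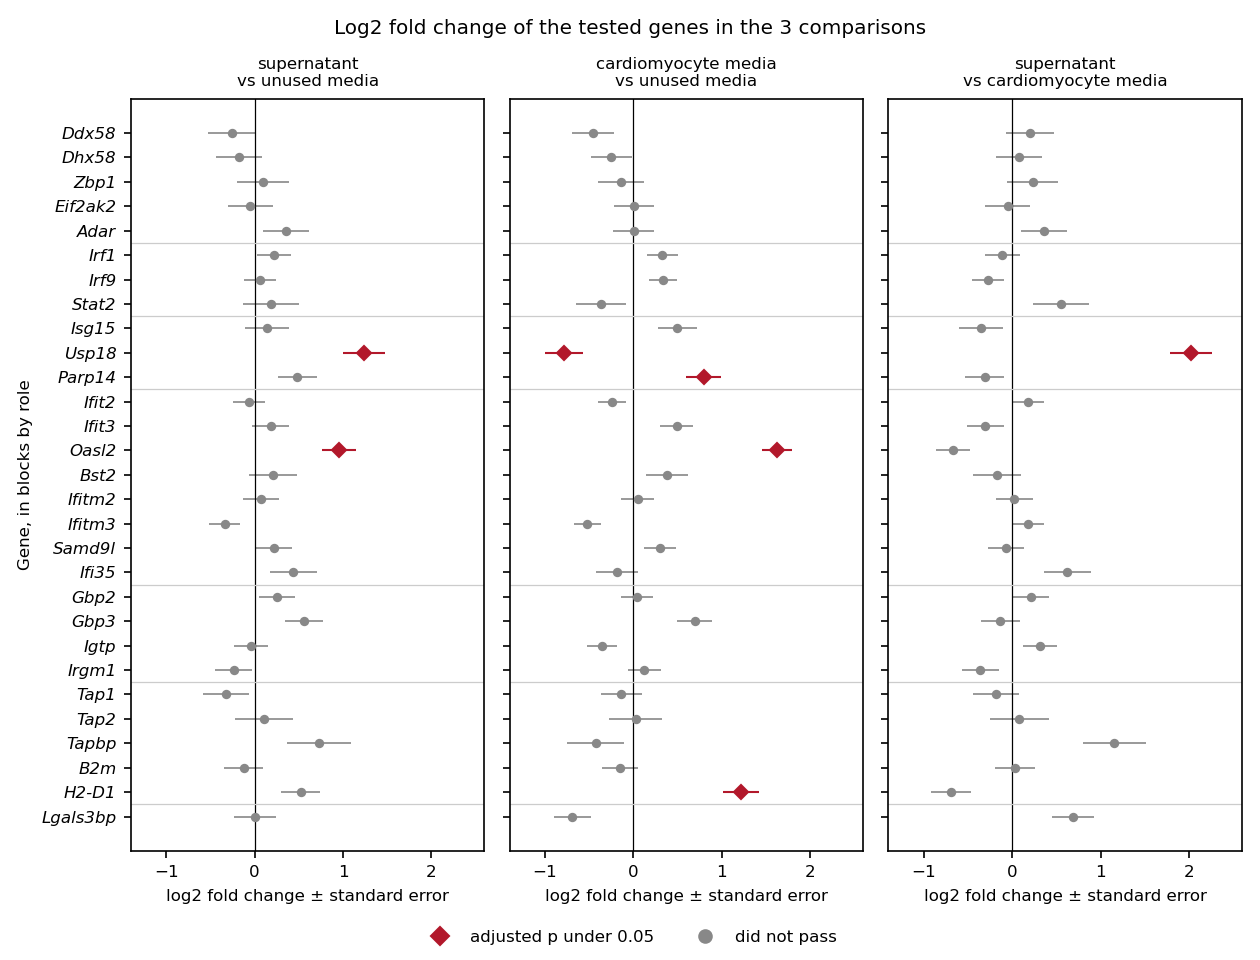
Log2 fold change and standard error of the 29 tested genes (rows, in blocks by role) in the 3 comparisons (panels), with red diamonds for an adjusted p under 0.05. Oasl2 at 0.95 and 1.62 lay right of 0 in both comparisons with unused media. Usp18 lay at 1.24 with the supernatant and at -0.78 with cardiomyocyte media (detected on 1 of 3 arrays). The fitted values of H2-D1 over unused media stand where only a bound is known. Those of Isg15 and Bst2 stand where no bound above 1 could be given.

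Other genes of the pathway were taken from 5 lists, which do not overlap with the 46 genes. Of 5 tested genes of interferons and their receptors none passed with the supernatant, and 1 passed with cardiomyocyte media, where 8.36% of all genes passed. This was Ifngr1, the ligand-binding chain of the interferon gamma receptor, with signals of 196 and 191 with the supernatant, 384, 277 and 282 with cardiomyocyte media and 197, 146 and 179.6 with unused media. Cardiomyocyte media lay above the other media on every array, and Ifngr1 rose over unused media by a log2 fold change of 0.79 ± 0.19 (SE, adjusted p = 0.0242). The call ended under 6 of 24 alternatives, among them the omission of unused media replicate 2 (0.68) or 3 (0.82) and of cardiomyocyte media replicate 2 (0.87) or 3 (0.86), and it held with a chip term (0.97). Ifnar2, a chain of the type I receptor, had a log2 fold change of 0.80 with the supernatant over unused media (adjusted p = 0.512). Ifng had signals of 9.26 and 5.65 with the supernatant, 19.1, 8.99 and 6.70 with cardiomyocyte media and 19.4, 20.8 and 25.5 with unused media, and was detected on 2 arrays, both of unused media. By group means it was lower by at least 1.12-fold with the supernatant (adjusted p = 0.202) and 1.11-fold with cardiomyocyte media (adjusted p = 0.159). Neither difference passed.

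Of 12 tested kinases, STATs, IRFs and their inhibitors none passed in any comparison in limma, with 0, 3 and 0 genes at an unadjusted p under 0.05 for the supernatant over unused media, cardiomyocyte media over unused media and the supernatant over cardiomyocyte media. Socs3, an inhibitor of JAK kinases, had a log2 fold change of -0.30 with the supernatant and -0.63 with cardiomyocyte media (adjusted p = 0.126). Jak1 had one of -0.56 with cardiomyocyte media (adjusted p = 0.173), and the phosphatase Ptpn1 one of -0.38 with the supernatant (adjusted p = 0.603). Of 12 tested genes of nucleic acid sensing 1 fell with cardiomyocyte media (8.33%, against 8.36% of all genes that passed there), and none passed with the supernatant. The gene that fell was Trim56, a ubiquitin ligase of the STING pathway, with signals of 73.7 and 57.3 with the supernatant, 15.5, 41.4 and 18.9 with cardiomyocyte media and 51.5, 52.8 and 73.4 with unused media. Cardiomyocyte media lay below the other media on every array, and Trim56 fell by 0.91 on the log2 scale over unused media (SE 0.24, adjusted p = 0.0401). This call ended under 17 of 23 alternatives, among them a chip term (-1.02) and the omission of any array but cardiomyocyte media replicate 2 (-0.74 to -0.98). Samhd1, which degrades nucleotides, had a log2 fold change of -0.51 with the supernatant (adjusted p = 0.243), Nlrx1 had 0.35 (adjusted p = 0.558) and Trim21 had -0.48 with cardiomyocyte media (adjusted p = 0.200).

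Of 12 tested genes of the immunoproteasome, of peptide trimming and loading and of class I control, 1 was higher and 1 lower with cardiomyocyte media than with unused media (16.7%, against 8.36% of all genes). An unadjusted p under 0.05 was found for 6 of the 12 there, against 25.1% of all genes, and none passed with the supernatant. H2-T23, a nonclassical class I heavy chain that engages receptors of natural killer cells, had signals of 17.8 and 34.8 with the supernatant, 35.1, 56.8 and 52.2 with cardiomyocyte media and 21.6, 13.4 and 9.90 with unused media. As with H2-D1, cardiomyocyte media was highest, and the gene rose over unused media by a log2 fold change of 1.05 ± 0.22 (SE, adjusted p = 0.0153), with 1 of 3 unused media arrays detected. With the supernatant its log2 fold change was 0.44 (adjusted p = 0.535). The call ended under 8 of 23 alternatives, among them a chip term (0.71), chip 1 alone (0.74), and the omission of replicate 2 (1.02) or 3 (0.93) of unused media and of replicate 2 (0.95) or 3 (1.0) of cardiomyocyte media. Cd1d1, which presents lipids in place of peptides, had signals of 417 and 340.2 with the supernatant, 216, 151 and 157 with cardiomyocyte media and 345, 360.2 and 483 with unused media. Cardiomyocyte media lay below the other media on every array. Cd1d1 fell by 1.11 on the log2 scale with cardiomyocyte media compared with unused media (SE 0.20, adjusted p = 0.00580) and was 1.06 higher with the supernatant than with cardiomyocyte media (SE 0.23, adjusted p = 0.0194). The first held with a chip term (-0.86) and ended under 2 of 24 alternatives, median scaling and chip 1 alone (-0.81). The second ended under 6 of 25, among them the authors' values and chip 1 alone. It also ended without either supernatant array (0.92 and 1.20) and without cardiomyocyte media replicate 2 (0.97) or 3 (1.0). Mr1, which presents vitamin metabolites, had a mean at least 1.10-fold higher with the supernatant than with unused media and did not pass (adjusted p = 0.376).

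Of 23 other tested interferon-induced genes 2 rose with cardiomyocyte media over unused media (8.7%, against 8.36% of all genes that passed), and 2 were lower with the supernatant than with cardiomyocyte media (8.7%, against 4.9%). With cardiomyocyte media over unused media 16 of the 23 lay below 0, with a median log2 fold change of -0.22. The arrays were apart for 7 lower and 2 higher genes, against 15.5% and 13.2% of all genes. An unadjusted p under 0.05 was found for 8 of the 23 there (34.8%), against 25.1% of all genes. Ly6e, a lipid-anchored surface protein that affects the entry of viruses, had signals of 531 and 445 with the supernatant, 1269, 859.9 and 1111 with cardiomyocyte media and 344, 384 and 536 with unused media. The supernatant overlapped with unused media, and cardiomyocyte media lay above both. Ly6e rose with cardiomyocyte media by a log2 fold change of 1.33 ± 0.21 (SE, adjusted p = 0.00290), which held under all 24 alternatives, with a chip term (1.54) and within chip 1 (1.58) among them. With the supernatant it was lower than with cardiomyocyte media, at -1.11 ± 0.24 (SE, adjusted p = 0.0210). This ended under 7 of 25 alternatives, namely median scaling, the authors' values and either chip alone, and with single arrays left out. Those arrays were either of the supernatant (-1.23 and -0.99) and cardiomyocyte media replicate 3 (-1.08). Ccl5, a chemokine for T cells, was detected on all 3 arrays with cardiomyocyte media and on no other array, with signals of 6.72 and 7.37 with the supernatant, 22.3, 26.1 and 33.1 with cardiomyocyte media and 6.47, 13.7 and 7.02 with unused media. It rose with cardiomyocyte media at least 1.19-fold over unused media (adjusted p = 0.0207). With the supernatant it was lower than with cardiomyocyte media by at least 1.27-fold (adjusted p = 0.0246). The detection filter kept Ccl5 only through the group where it is high, so these p-values are not independent of that selection. Ccl5 counts among the genes that rose and among those lower with the supernatant, and both calls held with no detection filter. These calls ended under 11 of 23 and 12 of 24 alternatives, among them no background correction, an offset of 50, median scaling and the authors' values. Both ended without cardiomyocyte media replicate 2 or 3, the first also with a chip term and without unused media replicate 1 or 3, and the second without either supernatant array. None of the 23 passed with the supernatant over unused media, with 1 at an unadjusted p under 0.05. Ifi27l2a had a log2 fold change of -0.70 there (adjusted p = 0.317), and the GTPase Irgm2 one of 0.39 (adjusted p = 0.597).

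**Figure D5:**
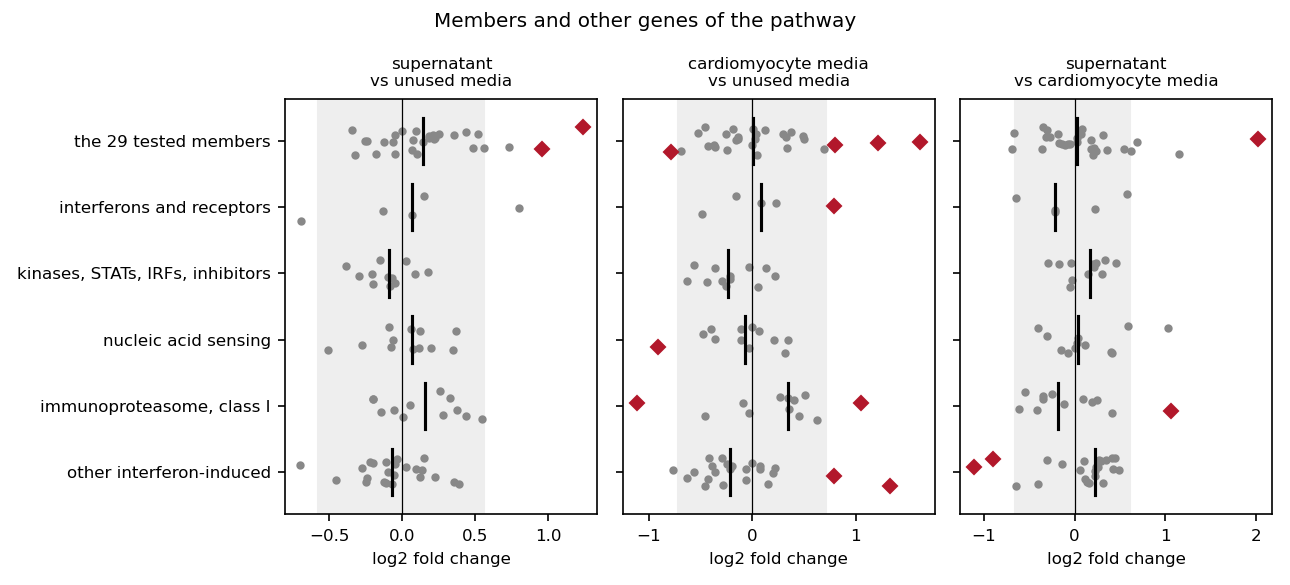
Log2 fold change (horizontal axis) of the 29 tested genes and of the tested genes of 5 further pathway lists (rows) in the 3 comparisons (panels), with a point for each gene, red diamonds for an adjusted p under 0.05, a bar for the median of each list and a grey band for the middle 90% of all genes tested. The list medians lay close to 0, from -0.23 to 0.35.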

How the data were processed

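RNA of 8 samples was hybridised to Illumina MouseRef-8 arrays on 2 chips. The authors deposited the mean bead intensity of each probe, neither background-subtracted nor normalized, with a detection p-value against the negative controls of each array, as BeadStudio gives them (the submitters' processing notes name release 3.3). A second deposited table held intensities that the authors had background-subtracted and normalized by cubic spline on the linear scale, and it was used as an alternative. Groups followed the sample labels.

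Here the intensities were background-corrected by limma (version 3.58.1 in R 4.3.3; normexp with negative controls inferred from the detection p-values, offset 16), quantile normalized and put on the log2 scale. Printed signals are back on the linear scale with the offset taken off. A probe was kept if 2 or more arrays detected it (p-value under 0.05), each gene was represented by its brightest kept probe, and 8885 genes were fitted over all 8 arrays with lmFit and eBayes, with Benjamini-Hochberg adjustment over all of them and a threshold of 0.05. Fold changes are on the scale with the offset and understate those of dim genes. Gene names came from the platform annotation, which names a gene for 23978 of 25697 probes. The number of arrays limits the precision. The members and lists, and the rule for named genes (every member, with values on each array for those past the threshold and for their relatives, and from each pathway list the genes past the threshold or else the 2 with the smallest p over unused media) were chosen with earlier results of these data known. The alternatives were other background corrections, scalings, detection filters, probe rules and fits, chip or replicate number as a block, each chip alone and each array left out. Values within chip 2 alone were added after the data had been seen. Simulated data with known changes were used to check the model.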

Additional observations from a re-analysis of the deposited data

Results flagged for a closer look

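The response of Usp18 to the supernatant differed from its response to cardiomyocyte media by a direct test. Compared with the same unused media arrays, its log2 fold change was 1.24 with the supernatant and -0.78 with cardiomyocyte media, and the difference between the media was 2.02 (limma, adjusted p = 0.000623, and 4.1e-05 to 0.0910 over 24 alternatives). Both supernatant arrays lay above every unused media array, and all 3 cardiomyocyte media arrays lay below them. Usp18 was detected on 1 of 3 arrays with cardiomyocyte media, and the call of -0.78 ended under 20 of 23 alternatives. On its second kept probe the supernatant (51.3 and 62.1) overlapped with unused media (45.6, 51.8 and 29, adjusted p = 0.623 over all probes). No other gene of the list passed that test.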

How the results depend on the processing

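Each named gene that passed as reported kept its direction under every alternative in which it was tested. Bst2 with cardiomyocyte media over unused media, which passed only without cardiomyocyte media replicate 1, had log2 fold changes of -0.17 (within chip 1) to 1.98. Of the 29 genes, those called with the supernatant over unused media numbered 1 instead of 2 without background correction, with an offset of 50, with median scaling or with probes averaged. They numbered 0 with the authors' values, with detection required on all arrays, within chip 1 or with the replicate block, and 0 to 2 with an array left out. The genes called over all genes numbered 193 (65 higher and 128 lower), against 63 with median scaling (53 higher and 10 lower), 75 with the authors' values, 0 within chip 1, 97 with the replicate block and 0 to 242 with an array left out. With cardiomyocyte media over unused media 4 of the 29 became 2 with the authors' values, with detection on all arrays or with a chip block, 1 within chip 1, and 2 to 6 with an array left out. Over all genes 743 (356 higher and 387 lower) became 480 with median scaling (369 higher and 111 lower), 395 with the authors' values, 173 within chip 1 and 375 to 1448 with an array left out. Between the supernatant and cardiomyocyte media 1 of the 29 became 2 with median scaling, with each probe tested or with chip as a random block, 3 with a chip block, 0 with detection on all arrays, where Usp18 was not tested, or within chip 1, and 1 to 3 with an array left out. Over all genes 435 became 258 with median scaling, 236 with the authors' values, 37 within chip 1, 242 within chip 2, and 159 to 482 with an array left out. With an array left out or a chip alone, fewer samples enter the fit, and a lone array is assumed to vary like the other groups. The cause of the other changes was not tested. Same-numbered arrays of unused media and cardiomyocyte media correlated at -0.18, -0.094 and -0.16 in their deviations from the group means, and those of unused media and the supernatant at -0.13 and -0.092. Those of the supernatant and cardiomyocyte media, each pair on 1 chip, correlated at 0.71 and 0.49. The 2 supernatant arrays deviate from their mean by equal and opposite amounts, so these values are not separate. Replicate 1 of either conditioned medium lay on chip 1 and the others on chip 2, so pairing and chip cannot be told apart. The replicate numbers were not taken as a pairing. With the replicate block the comparison of the supernatant and cardiomyocyte media called 1 of the 29 genes and 342 of all genes. Signal over background limits the list, since 15 of its 44 genes with a probe could not be tested and detected probes had a median of 3.03 to 5.49 times that of undetected probes.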
